A study of Mus musculus with 16 samples.

Results

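The cytosolic ribosomal protein genes were examined in DN3 and ISP8 thymocytes of PKBα-/- and wild-type mice. DN3 thymocytes lack CD4 and CD8, carry CD25 without CD44 and stand just before the checkpoint for the pre-T cell receptor, and ISP8 thymocytes are the CD8+ CD4- CD3- cells that follow it on the way to the double-positive stage. Members were taken by name alone, as every probe set whose only annotated symbol was an Rpl or Rps gene with a number, a stalk protein gene (Rplp0 to Rplp2) or Rpsa. This gave 100 of the 45101 probe sets and 46 of the 18194 genes with a probe set of a single symbol, of which 22 belonged to the small and 24 to the large ribosomal subunit. For each gene, the probe set with the highest mean log2 intensity over the 16 arrays stood for the gene, and the others served as a check.

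The 16 arrays formed 4 groups of 4, from 8 mice on a C57Bl/6 backcross, and each mouse gave both subsets. A knockout mouse was always paired with a wild-type mouse of the same sex and age. The pairs were females of 3 weeks, males of 3 weeks, males of 2 weeks and females of 5 weeks, and values by array follow this order throughout. All PKBα-/- mice carried the genome-wide deletion, so that stromal and hematopoietic cells lacked the kinase as well, and no other allele or treatment was given. RNA came from small sorted samples and was amplified with 2 cycles from the 3′ end before hybridisation. Since sorted cells were pooled, fewer cells of a type and less RNA per cell cannot be told apart. Every level below is a GC-RMA intensity (background-corrected, normalised and on a linear scale) and every change is a difference of log2 intensities with its standard error (SE).

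Ribosomal proteins assemble with ribosomal RNA in the nucleolus into the small subunit, which decodes the mRNA, and the large subunit, which joins the amino acids. The mRNAs of many of these proteins begin with a run of pyrimidines, the terminal oligopyrimidine tract. Through it mTOR, a kinase downstream of PI3K and PKB, controls their translation, which the amount of mRNA does not measure. In the thymus, cells enlarge and divide rapidly after the pre-T cell receptor signal, and loss of Rpl22 is known to arrest αβ T cell development.

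The start sites of a few members are printed below because the tract is the feature by which the family is tied to the kinase pathway. Each is a RefSeq window on GRCm38.p6 from 10 bases before the annotated start to 20 bases from it, 5′ to 3′ on the gene's strand, and capitals mark an unbroken run of C or T of at least 8 bases that reaches within 5 bases of the start. The set holds 5 members whose chosen probe set changed between subsets (Rps24, Rps10, Rpl14, Rps25 and Rpl13a) and 3 that did not pass the test (Rps6, Rplp2 and Rpl35).
Rps24, chr14:24490668-24490697, plus strand: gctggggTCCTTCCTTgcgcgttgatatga
Rps10, chr17:27635225-27635254, minus strand: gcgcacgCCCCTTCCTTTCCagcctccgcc
Rpl14, chr9:120571507-120571536, plus strand: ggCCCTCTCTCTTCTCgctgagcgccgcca
Rps25, chr9:44407704-44407733, plus strand: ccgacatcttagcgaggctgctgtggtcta
Rpl13a, chr7:45128726-45128755, minus strand: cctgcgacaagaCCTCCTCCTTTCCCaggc
Rps6, chr4:86857348-86857377, minus strand: gaagtcgggCCTCTTTTTCgtgacgcctcc
Rplp2, chr7:141447641-141447670, plus strand: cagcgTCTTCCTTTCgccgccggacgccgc
Rpl35, chr2:39005112-39005141, minus strand: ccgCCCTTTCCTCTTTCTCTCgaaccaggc

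The run was present both in members that changed and in members that did not. Rps25 changed without it, as did Rpl39, Rps15 and Rps19, whose starts are not printed. The run is more common in the printed set than among the members as a whole. Whether the annotated starts are the ones used in these cells was not tested. Of the 46 members, 40 had a start in the table, and 17 of these (42.5%) held such a run, against 11.4% of the 27025 genes in the table. The letters CGGAAG on either strand, a core sequence bound by ETS-family factors, lay within the 300-base windows (250 bases before the start and 50 from it) of 72.5% of the members and 18.8% of all genes, and TATAAA on either strand in 12.5% and 15.7%. The reverse form CTTCCG shares its pyrimidines with the run, so that both searches can count the same bases. The median change from DN3 to ISP8 in wild type was -0.01 for the 17 members with the run and 0.01 for the 22 measured members without it.

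The labels were checked on Akt1, the gene of PKBα. Its main probe set (1416657_at) gave 1198 to 2211 on the 8 wild-type arrays and 2.0 to 27.3 on the 8 knockout arrays. Il2ra (CD25) gave 6899 to 10971 on DN3 arrays and 85 to 460 on ISP8 arrays, and Cd8a gave 98 to 292 and 4251 to 6012. Rank correlations between arrays of 1 subset lay between 0.901 and 0.931. Markers of neutrophils (S100a8, S100a9, Elane, Mpo, Ngp and Camp) summed to 189 to 4422 in wild-type ISP8 arrays, 92 to 227 in PKBα-/- ISP8 arrays, 120 to 1470 in wild-type DN3 and 96 to 552 in PKBα-/- DN3 arrays.

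Most ribosomal protein probe sets lay near the top of the array's range. The chosen probe set had a mean intensity above 10000 for 33 members, between 1000 and 10000 for 7 and under 1000 for 6, while the brightest probe set of each array read at least 43030. The dim ones were Rpl39, Rpl39l, Rpl3l, Rps4l, Rps27 and Rps16. Each had a single such probe set, so that no brighter one could stand for the gene. The Rps16 probe set read between 0.7 and 28.7 and did not pass the filter (above 20 in at least 1 array of a pair in at least 3 pairs), while the other 45 members passed it in every comparison. Rpl3, Rpl5, Rpl10, Rpl10l, Rplp1 and Rps27a had no probe set with a single symbol. A further 110 probe sets joined a ribosomal protein symbol with other symbols and are described below as a group without names. IDs ending in _x_at mark probe sets whose probes can also match other transcripts. The chosen probe sets of Rps24, Rps10, Rps27l and Rpl13a have this ending, as has another probe set of Rps27l (1423254_x_at).

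Between arrays the family was steady. The median deviation of the 33 bright members from their own means lay between -0.05 and 0.11 on the log2 scale in wild-type DN3, between -0.13 and 0.08 in PKBα-/- DN3, between -0.08 and 0.06 in wild-type ISP8 and between -0.09 and 0.03 in PKBα-/- ISP8 arrays. In each of these groups the lowest array was that of the 2-week-old male pair, which is the only pair of that age, so that pair and age cannot be told apart. The 100 probe sets together took 4.05% to 4.67% of the summed intensity of a DN3 array and 3.97% to 4.38% of that of an ISP8 array. Although these ranges overlap, the share was lower in ISP8 than in DN3 in every mouse. The group means were 4.47% and 4.23% in wild type and 4.36% and 4.09% in PKBα-/- cells. This difference in share was not tested.

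From DN3 to ISP8 in wild-type cells, most ribosomal protein mRNAs changed by less than 0.2 on the log2 scale. Rps27l, Rps25 and Rpl14 rose, and Rps24, Rps10 and Rpl39 fell. These were 6 of the 45 members tested (13.3%), 3 in each direction, whereas 28.9% of the 34506 probe sets tested passed, 11.6% higher and 17.3% lower. The median change of the members was -0.00, that of all probe sets -0.09, and 34 members stayed within 0.2 in either direction. The 95% interval lay within 0.5 in either direction for 32 of the 33 bright members, the exception being Rps24. Without the pairing of subsets from the same mouse, 3 members were higher and 1 was lower.

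**Figure D1:**
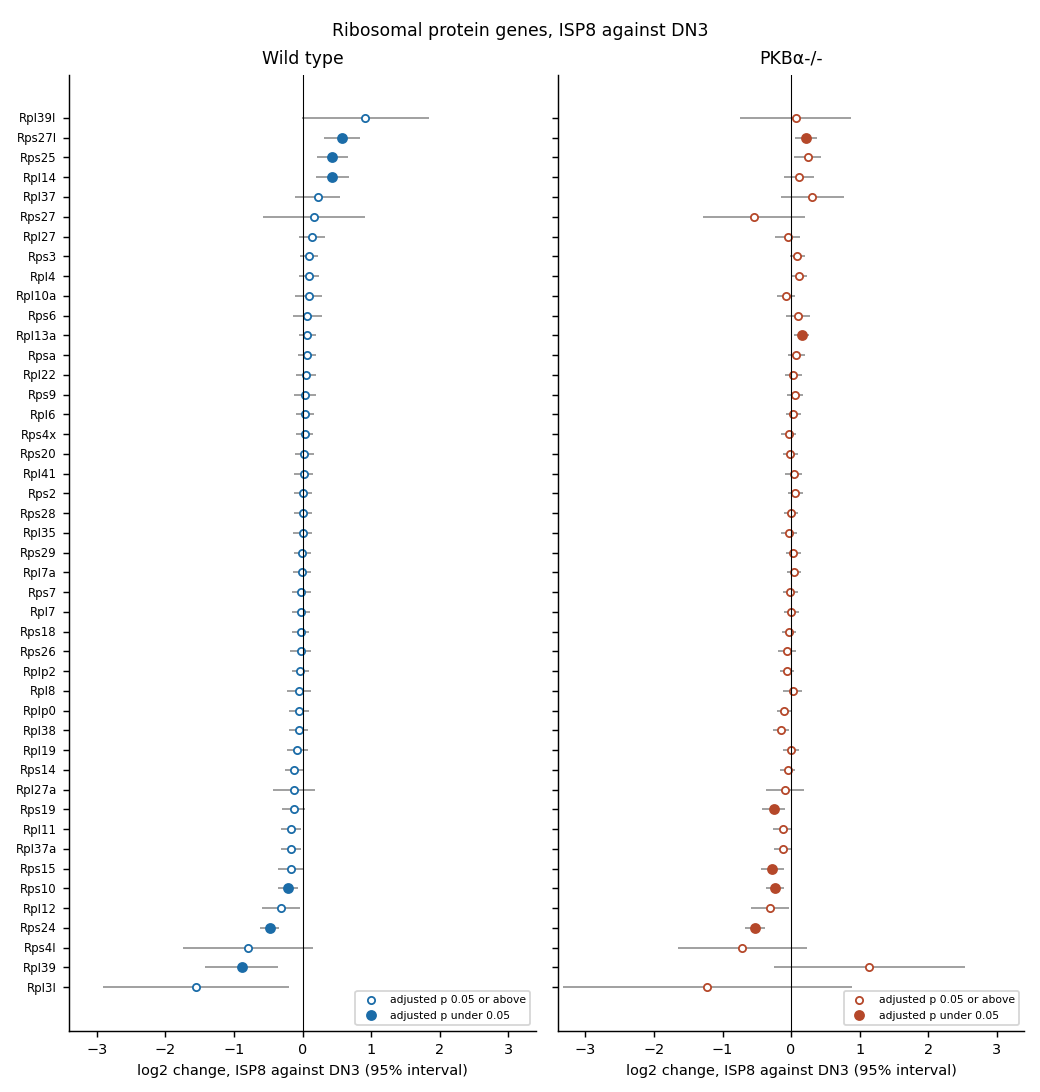
Log2 change from DN3 to ISP8 in wild-type (left) and PKBα-/- (right) cells for the 45 members tested, 1 probe set per gene, with the 95% interval of the limma fit over 4 mice, filled where the adjusted p was under 0.05. Most members lie on the zero line with short intervals, Rps24 lies at -0.48 in wild type and -0.53 in PKBα-/- cells, and the wide intervals belong to dim probe sets.

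Rps24, a small-subunit protein whose gene is mutated in some patients with Diamond-Blackfan anaemia, was the clearest of the members that fell. Its intensities were 23966, 23871, 23572 and 22753 in wild-type DN3 and 17829, 17722, 15963 and 15970 in wild-type ISP8 arrays. The PKBα-/- values were 24327, 26287, 18330 and 24804 in DN3 and 18839, 15207, 13894 and 17017 in ISP8. Subsets did not overlap in wild type, and in PKBα-/- cells the DN3 array of the 2-week-old male lay below 1 ISP8 array but above the ISP8 array of the same mouse. The log2 change was -0.48 ± 0.07 (SE, adjusted p = 9.78e-05 by limma) in wild type and -0.53 ± 0.07 (adjusted p = 5.40e-05) in PKBα-/- cells, in 4 of 4 mice each. Of its 6 probe sets, all read lower in wild-type ISP8 (-1.15 to -0.26) and 4 passed. In PKBα-/- cells 4 passed as lower, and only the dimmest (1436500_at, mean intensity 29) read higher, by 0.92, with an adjusted p of 0.33.

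Rps10, another small-subunit protein of the Diamond-Blackfan group, fell by a smaller amount. Its intensities were 26749, 24178, 21977 and 24110 in wild-type DN3 and 21881, 22612, 17975 and 21392 in wild-type ISP8, which overlap. The change was -0.21 ± 0.07 (adjusted p = 0.029) in wild type and -0.24 ± 0.06 (adjusted p = 0.0096) in PKBα-/- cells. All 6 probe sets of Rps10 read lower in ISP8 in both genotypes, and 3 passed in wild type and 4 in PKBα-/- cells. On subtraction of the array medians the change shrank to -0.03 in wild type and -0.10 in PKBα-/- cells and passed in neither (adjusted p = 0.81 and 0.36), and in wild type it also failed without the 3-week-old females (0.094) or the 2-week-old males (0.077), as it did in PKBα-/- cells without the 3-week-old males (0.066). One of its probe sets (1439374_x_at) read -0.34 in wild type (adjusted p = 0.23) and fell by 1.08 in PKBα-/- cells (adjusted p = 1.47e-06), with a genotype change of -0.57 in ISP8 that did not pass (adjusted p = 0.26).

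Rps27l, a close copy of Rps27 whose gene is a target of p53, rose in wild type on each of its 3 probe sets. The brightest gave 7064, 4746, 6701 and 4443 in wild-type DN3 and 8418, 9987, 8147 and 7124 in wild-type ISP8, without overlap. For PKBα-/- cells the values were 7122, 6315, 5401 and 4939 in DN3 and 7581, 6886, 6493 and 6464 in ISP8, which overlap between mice although each mouse was higher in ISP8. The change was 0.57 ± 0.12 (adjusted p = 0.0027) in wild type and 0.22 ± 0.08 (adjusted p = 0.048) in PKBα-/- cells. The 3 probe sets rose by 0.37 to 0.59 in wild type, and 1 of 3 passed in PKBα-/- cells (0.12 to 0.25). The call in PKBα-/- cells was lost under 6 of 11 other settings, among them the fits without any of the males or the 5-week-old females (adjusted p = 0.083 to 0.17).

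Rps25, a small-subunit protein needed for initiation at several viral internal entry sites, rose in wild type. The probe set gave 2234, 1854, 1977 and 2111 in wild-type DN3 and 2858, 2950, 2565 and 2669 in wild-type ISP8. The PKBα-/- arrays gave 2252, 2061, 2171 and 1898 in DN3 and 2607, 2567, 2463 and 2280 in ISP8. ISP8 arrays lay above all DN3 arrays of the same genotype in both cases. The change was 0.43 ± 0.11 (adjusted p = 0.0072) in wild type and 0.24 ± 0.09 (adjusted p = 0.063) in PKBα-/- cells.

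Rpl14, a large-subunit protein, rose in wild type as well. The probe set gave 2914, 2794, 2747 and 2048 in wild-type DN3 and 3817, 3662, 3122 and 3505 in wild-type ISP8, without overlap. In PKBα-/- cells, 3015, 3256, 2808 and 2319 in DN3 stood against 2774, 3157, 3129 and 3178 in ISP8, and 2 of 4 mice were higher in ISP8. The change was 0.43 ± 0.11 (adjusted p = 0.0092) in wild type, 0.063 without the 5-week-old females, and 0.11 ± 0.10 (adjusted p = 0.48) in PKBα-/- cells. Rps25 and Rpl14 had 1 probe set each, and no second one could check them.

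Rpl39, a very small protein at the exit of the peptide tunnel, passed on a dim probe set. It gave 217, 175, 315 and 222 in wild-type DN3 and 88.8, 79.8, 215 and 149 in wild-type ISP8, and the groups overlap. The change was -0.89 ± 0.25 (adjusted p = 0.015) in wild type, but 1.14 ± 0.65 (adjusted p = 0.23) in PKBα-/- cells, where 1 DN3 array (2-week-old male) read 11.8. The wild-type call was lost without the 3-week-old females (adjusted p = 0.056), without the pairing (0.064) and under both other scalings (0.052 and 0.089), and without the 2-week-old males the change in PKBα-/- cells was -0.04. The other dim members varied as well, in part by mouse or pair. Rpl39l read 637 in DN3 and 627 in ISP8 of the 2-week-old PKBα-/- male, against 26.2 to 196 on the other arrays. In the oldest pair, Rps4l read 45.5 in DN3 and 6.9 in ISP8 of wild type, and 4.2 and 3.1 in PKBα-/- cells. Elsewhere it read 108 to 206, apart from 35.4 in PKBα-/- ISP8 of the 3-week-old female. Rpl39l, a copy of Rpl39 known from testis, read 26.2 to 99.8 in wild-type DN3 and 97.8 to 196 in wild-type ISP8 (change 0.92 ± 0.43, adjusted p = 0.14), and Rpl3l, a copy of Rpl3 known from muscle, read 52.4 to 85.9 and 4.3 to 50.2 (change -1.55 ± 0.63, adjusted p = 0.085).

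From DN3 to ISP8 in PKBα-/- cells, Rpl13a and Rps27l rose, and Rps24, Rps10, Rps15 and Rps19 fell, which were 6 of 45 members (13.3%) where 28.1% of the 34038 probe sets tested passed, 11.9% higher and 16.2% lower. The median change of the members was -0.01 and that of all probe sets -0.05. Rpl13a, which besides its place in the large subunit takes part in translational silencing after interferon-γ, rose by 0.15 ± 0.05 (adjusted p = 0.033) in 4 of 4 mice, from 36435 ± 1787 to 40507 ± 2132 (SD, n = 4). All of its 4 probe sets read at or above zero and 3 passed, but the call of the brightest was lost without the 5-week-old females (adjusted p = 0.079) and after quantile normalisation (0.15). In wild type the brightest read 0.07 ± 0.06 (adjusted p = 0.44 by limma). All 4 read above zero there too, and 1 passed (1433928_a_at, 0.39 ± 0.08, adjusted p = 0.0034 by limma). That probe set rose by 0.29 ± 0.07 in PKBα-/- cells. Rps15 fell by 0.27 ± 0.08 (adjusted p = 0.015), with both of its probe sets passing, and Rps19, a further Diamond-Blackfan gene, fell by 0.25 ± 0.08 (adjusted p = 0.026) in 3 of 4 mice. Both were also below zero in wild type, Rps15 at -0.17 (adjusted p = 0.15) and Rps19 at -0.13 (adjusted p = 0.26), and both calls were lost without the 3-week-old pair of either sex (adjusted p between 0.069 and 0.13) and after subtraction of the array medians (0.27 and 0.36). The second probe set of Rps15 fell in wild type too, by 0.41 (adjusted p = 0.010). Without the 5-week-old females no member passed as higher, and without the 3-week-old males 1 passed as lower. Without the block for the mouse, no member was higher and 2 were lower.

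Members that stand for known roles showed small changes between subsets in wild type. Rps6, the substrate of the S6 kinases downstream of mTOR, changed by 0.07 ± 0.10, Rplp0 of the stalk by -0.05 ± 0.07, Rplp2 of the stalk by -0.03 ± 0.06, Rpsa, also known as the laminin receptor precursor, by 0.06 ± 0.06 and Rpl11, which binds Mdm2, by -0.17 ± 0.07 (adjusted p = 0.087). Further members named by their small p, though none passed, were Rps3 (0.09) and Rpl27 (0.13) above zero and Rpl37a (-0.17) below it in wild type, and Rps25, Rpl4 (0.12), Rps3 (0.09), Rpl38 (-0.15) and Rpl12 (-0.31) in PKBα-/- cells.

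The change between subsets depended on the probe set for several genes, and Rpl22 was the plainest case. Its brightest probe set (1453118_s_at) was level, at 30496, 32524, 31707 and 30441 in wild-type DN3 and 30470, 34485, 29334 and 35871 in wild-type ISP8, a change of 0.05 ± 0.07 (95% interval -0.10 to 0.20). The second (1416603_at) gave 5075, 9235, 12672 and 4204 in DN3 and 19820, 22069, 18597 and 12732 in ISP8, a rise of 1.34 ± 0.16 (adjusted p = 2.89e-05). The third (1448398_s_at) gave 2063, 2373, 2184 and 1822 in DN3 and 825, 650, 992 and 992 in ISP8, a fall of 1.30 on the log2 scale (SE 0.15, adjusted p = 2.56e-05). In both of the latter the groups did not overlap, and they moved in opposite directions.

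The same held for Rpl22 in PKBα-/- cells. There the 3 probe sets changed by 0.03 ± 0.06, 1.25 ± 0.17 (adjusted p = 5.31e-05) and -1.13 ± 0.15 (adjusted p = 3.82e-05), each of the last 2 in 4 of 4 mice. The rise of 1416603_at was lost in PKBα-/- cells under robust moderation (adjusted p = 0.073). Rpl22l1, the copy of Rpl22 that can take its place in the ribosome, changed by 0.11 ± 0.10 (adjusted p = 0.46) in wild type and -0.09 ± 0.08 (adjusted p = 0.45) in PKBα-/- cells.

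**Figure D2:**
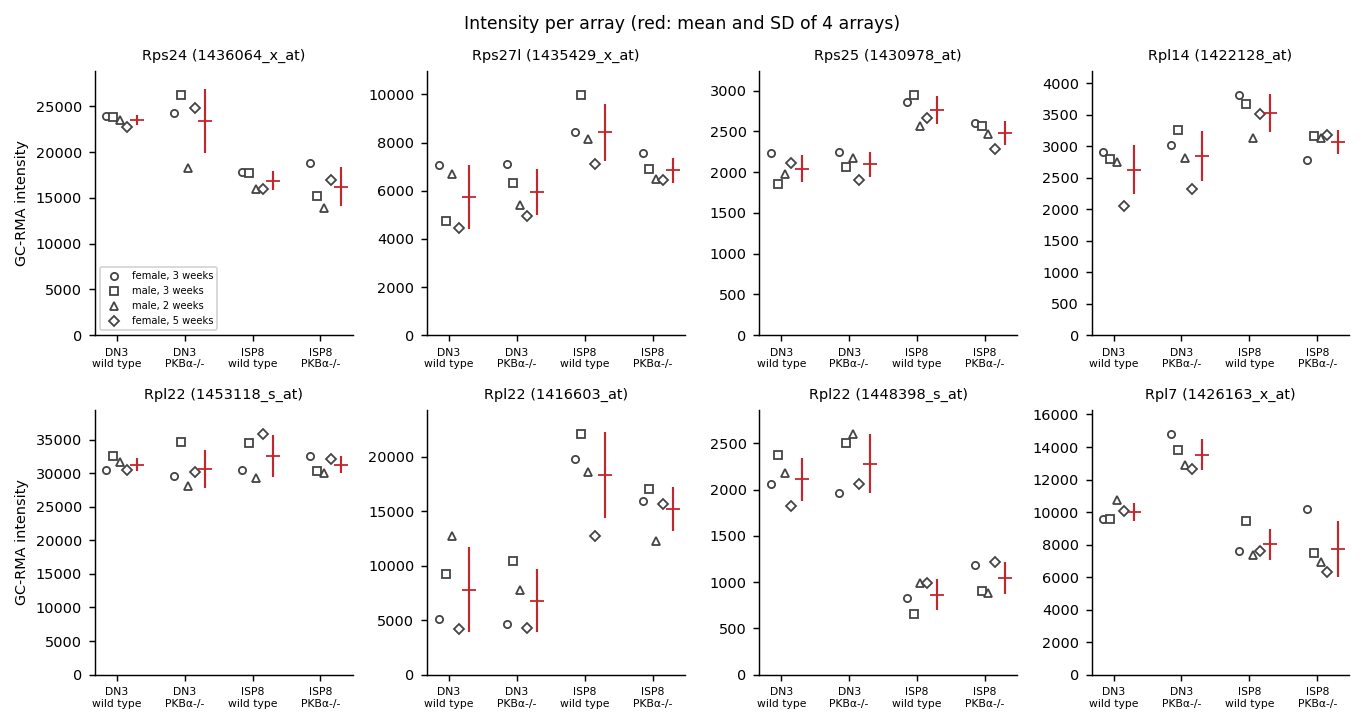
GC-RMA intensity on each array (linear axis from 0) for Rps24, Rps27l, Rps25 and Rpl14, for the 3 probe sets of Rpl22 and for 1 probe set of Rpl7, by group, with symbols for the 4 pairs and the mean and SD of 4 arrays in red. The Rpl22 probe set 1416603_at is higher in ISP8 than in DN3 in each mouse, 1448398_s_at is lower, 1453118_s_at is level, and Rpl7 1426163_x_at is highest in PKBα-/- DN3 arrays.

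Other genes had a probe set that passed while another read the other way. In wild type these were 1416217_a_at of Rpl37a (-0.42), 1422623_x_at of Rpl41 (-0.46), 1450417_a_at of Rps20 (-0.78) and 1433689_s_at of Rps9 (-0.30). The brightest probe sets of Rpl41, Rps20 and Rps9 read between 0.01 and 0.04. That of Rpl37a also read lower, at -0.17 (adjusted p = 0.077 by limma), and only its dimmest (1416218_x_at, mean intensity 524) read higher, at 0.21. The calls of Rpl37a and Rps9 were lost after subtraction of the array medians (adjusted p = 0.069 and 0.27 by limma). Those of Rpl41 and Rps20 were each lost without the 3-week-old females (0.17 and 0.079) or the 3-week-old males (0.071 and 0.084). The call of Rps20 was also lost without either of the other pairs. Counted over all single-symbol probe sets, 7 of 98 were higher and 15 lower in wild type, and 5 and 15 of 97 in PKBα-/- cells, beside 11.6% higher and 17.3% lower of all probe sets in wild type and 11.9% and 16.2% in PKBα-/- cells. Of the probe sets that join a ribosomal protein symbol with others, 4 of 108 were higher and 7 lower in wild type (median -0.01), and 5 and 13 of 107 in PKBα-/- cells (median -0.01).

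Among the brightest probe sets, few of the members passed. Above a mean log2 intensity of 14, 4 of 47 member probe sets passed in wild type (8.51%), with a median change of -0.02 and 19 above zero. Of the 166 other probe sets at that level, which carry no ribosomal protein symbol, 89 passed (53.6%), with a median change of 0.18 and 129 above zero. The median SE was 0.0649 for the member probe sets and 0.0678 for the others. Between log2 intensities of 12 and 14, 11 of 21 member probe sets (52.4%) and 62.1% of the 1590 others passed, with medians of -0.17 and 0.22. Whether brightness itself narrows the changes that the members can show was not tested.

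**Figure D3:**
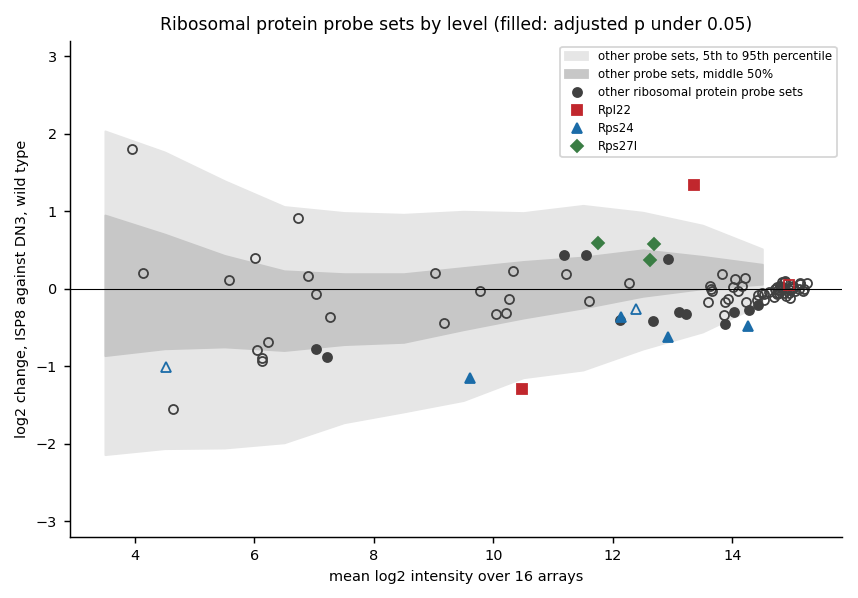
Log2 change from DN3 to ISP8 in wild type against the mean log2 intensity over 16 arrays for the 98 member probe sets tested, filled where the adjusted p was under 0.05, over the 5th to 95th percentile and the middle 50% of all other probe sets in bins of 1 log2 unit. Most member probe sets above 14 lie close to zero, apart from Rps24 at -0.48, and all of them lie under the median of the other probe sets between 14 and 15 (0.21), some within the middle 50%, while the 3 Rpl22 probe sets lie at 0.05, 1.34 and -1.30.

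Another scaling moved the whole table. Subtraction of the array medians moved the median of all probe sets by 0.18 in wild type and 0.13 in PKBα-/- cells, and quantile normalisation moved it by 0.12 and 0.08. The share of all calls that were higher was 40.2% in wild type as deposited and 57.5% after subtraction of the medians (42.5% and 56.4% in PKBα-/- cells). In wild type the members' calls went from 3 higher and 3 lower to 14 and 1 after subtraction of the medians, and to 3 and 6 after quantile normalisation. Relative to the median of all probe sets, the members' median was 0.08 higher in wild type as deposited and 0.08 lower after quantile normalisation, so that the side on which the family stood depended on the scaling. Rps24 passed as lower and Rps27l, Rps25 and Rpl14 as higher in wild type under all 3 scalings.

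The genotype comparison asks whether loss of PKBα alters these mRNAs within a subset. No member passed in DN3 (0 of 45, where 0.0383% of 33962 probe sets passed), in ISP8 (0 of 45, where 0.0147% of 34016 passed) or over both subsets together (0 of 45, where 0.0361% of 38748 passed), by limma. At an unadjusted p under 0.05, 3 of 45 members stood out in DN3, beside 4.83% of all probe sets, 4 of 45 in ISP8, beside 6.08%, and none over both subsets. A selection modelled on the study's methods, an unadjusted paired test with a 1.5-fold change in at least 3 of 4 pairs, took no member in either subset. Of all probe sets it took 458 (1.35%) in DN3 and 521 (1.53%) in ISP8. The paper's further criterion, a detection p-value for each gene, was not applied here, and the lists printed in the paper are far shorter. No member differed in its genotype effect between subsets (0 of 45, 0% of 38748 probe sets, smallest adjusted p 0.97; 2 members and 4.68% of all probe sets at an unadjusted p under 0.05).

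The intervals of the bright members were narrow. Over the 33 of them the changes from wild type to PKBα-/- lay between -0.13 and 0.06 in DN3 and between -0.19 and 0.01 in ISP8, and no 95% interval reached beyond -0.25 or 0.17 in DN3 or beyond -0.42 or 0.14 in ISP8. The median of the 45 members was -0.05 in DN3 (all probe sets -0.01) and -0.06 in ISP8 (all probe sets 0.02), with 34 and 39 members below zero, but after quantile normalisation these medians were 0.01 and -0.00 and 17 and 23 members were below zero, and after subtraction of the array medians they were -0.00 and -0.06, with 25 and 41 below zero. By pair, the median of the members was -0.10, 0.06, -0.08 and -0.06 in DN3 and -0.10, -0.08, -0.01 and -0.01 in ISP8. Other bright probe sets (above a log2 intensity of 14) were also mostly below zero, with 21 of 166 above it in ISP8 (median -0.04) and 46 of 166 in DN3 (median -0.03).

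**Figure D4:**
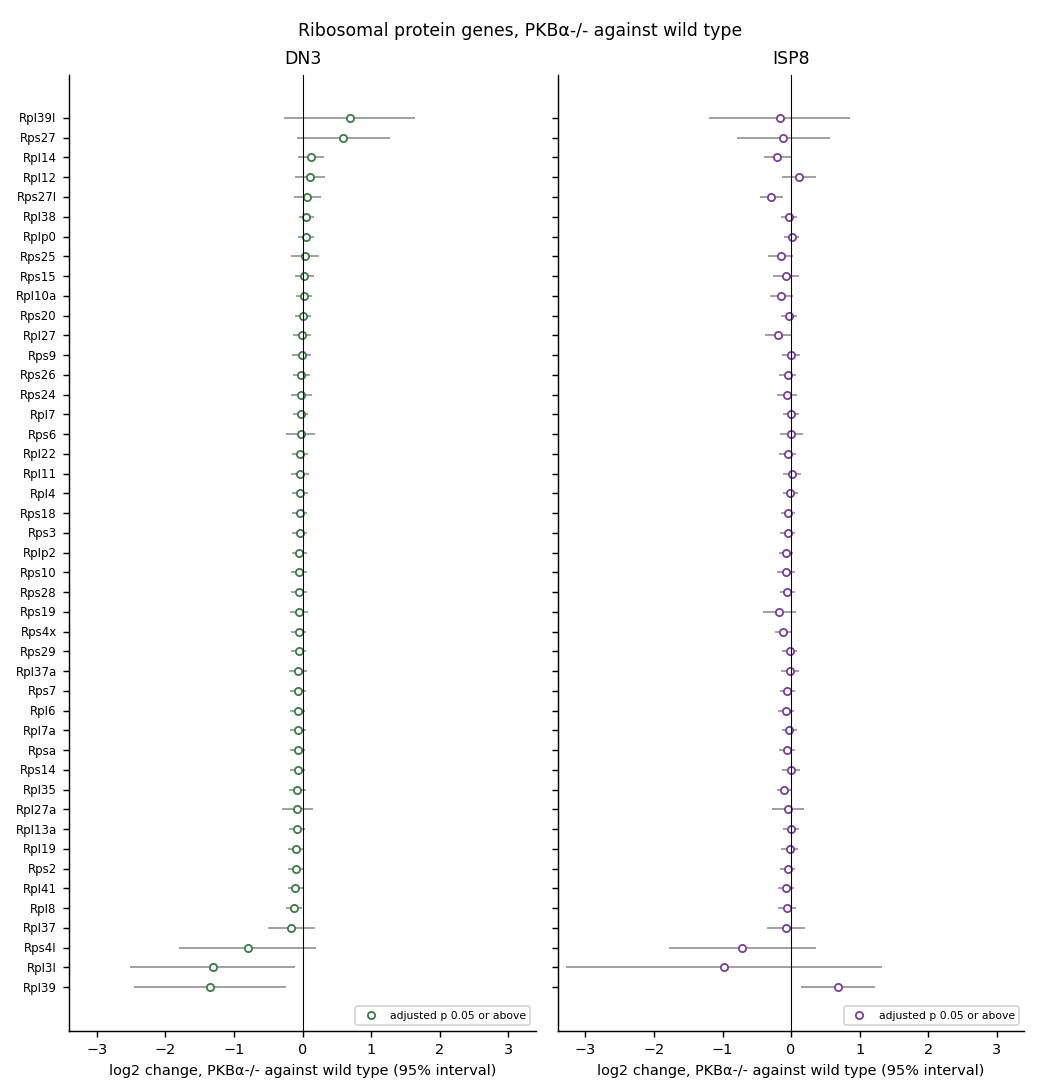
Log2 change from wild type to PKBα-/- in DN3 (left) and ISP8 (right) cells for the 45 members tested, with the 95% interval of the limma fit over 4 pairs. No point is filled, since no adjusted p was under 0.05, and the bright members crowd just below zero.

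In DN3 cells, the members with the smallest p below zero were Rpl39 (-1.35), Rpl8 (-0.13, 4 of 4 pairs), Rpl3l (-1.31), Rpl41 (-0.10), Rps2 (-0.10) and Rpl19 (-0.10), and above zero Rps27 (0.59), Rpl39l (0.69), Rpl14 (0.12), Rpl38 (0.06), Rpl12 (0.11) and Rplp0 (0.05), none with an adjusted p below 0.97. In ISP8 cells Rps27l had the smallest p. The values given above put 8418 ± 1185 in wild type against 6856 ± 520 in PKBα-/- ISP8 cells (SD, n = 4), a change of -0.29 ± 0.08 in 4 of 4 pairs (unadjusted p 0.0029 and adjusted p 0.65 by limma), and its other probe sets read -0.22 and -0.28. Next to it stood Rpl14 (-0.20), Rps4x (-0.12), Rpl27 (-0.19), Rpl35 (-0.10) and Rps25 (-0.15) below zero and Rpl39 (0.68), Rpl12 (0.11), Rplp0 (0.01), Rpl11 (0.01), Rps9 (0.00) and Rps6 (0.00) above it. The neutrophil markers differed between these ISP8 groups, with 6 of 6 below zero in PKBα-/- cells and the sums given above. In ISP8, 4 of them had an unadjusted p under 0.05 by limma and none was past the test. Over both subsets together 6 of 6 were below zero, 5 at an unadjusted p under 0.05, and 1 passed. The 8 markers of the DN3 stage (Il2ra, Ptcra, Rag1, Rag2, Notch1, Hes1, Dtx1 and Dntt) differed as well, with 8 of 8 above zero in PKBα-/- ISP8 cells (median 0.25), 3 of them at an unadjusted p under 0.05 and none past the test. They summed to 47341 to 54869 in wild-type and 53456 to 57866 in PKBα-/- ISP8 arrays, and their genotype change was higher in ISP8 than in DN3 for 8 of 8 (median difference 0.29, none past the test). In PKBα-/- ISP8 cells, 5 of 5 markers of B cells and 6 of 6 tested markers of myeloid and dendritic cells were also below zero, none past the test. In DN3, 1 of the 3 tested markers of gamma-delta T cells passed as higher in PKBα-/- cells. No other marker list had a gene past the test for genotype in DN3 or ISP8 alone. The part of any of these lists in the values of the members was not tested.

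The difference between the changes from DN3 to ISP8 in the 2 genotypes uses the same arrays as both changes. The members below were taken because they passed in wild type. A PKBα-/- change nearer to zero can arise from that choice alone, and nothing is read from it. PKBα-/- minus wild type, the difference was -0.36 ± 0.16 for Rps27l (unadjusted p 0.038), -0.32 ± 0.16 for Rpl14 (0.053), -0.19 ± 0.13 for Rps25 (0.15), 2.03 ± 0.86 for the dim probe set of Rpl39 (0.031), -0.02 ± 0.09 for Rps10 (0.81) and -0.04 ± 0.10 for Rps24 (0.68) by limma. None of the 6 passed, the smallest adjusted p being 0.97.

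Among all 97 single-symbol probe sets tested for genotype in DN3, 1 passed. This was 1426163_x_at of Rpl7, a large-subunit protein. It gave 9597, 9598, 10739 and 10049 in wild-type and 14801, 13819, 12898 and 12636 in PKBα-/- DN3 cells, without overlap, a change of 0.44 ± 0.07 (adjusted p = 0.022), and 7617, 9421, 7376 and 7600 in wild-type and 10180, 7494, 6905 and 6318 in PKBα-/- ISP8 cells. Both brighter probe sets of Rpl7 were level in DN3, at -0.03 ± 0.05 and -0.08 ± 0.06. The call was lost without the 3-week-old females (adjusted p = 0.091) or males (0.14), and without the pairing (0.60). The same probe set fell from DN3 to ISP8 by 0.33 in wild type and by 0.83 in PKBα-/- cells (adjusted p = 0.015 and 2.05e-06), a difference of -0.50 ± 0.13 (unadjusted p 0.0011, adjusted p 0.97 by limma). Its ID ends in _x_at, so that its probes can also match other transcripts, and related ribosomal protein pseudogenes were not separated here.

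Genes that build or serve the ribosome were followed beside the members. Their counts stand against 28.9% of all probe sets passing in wild type (11.6% higher, 17.3% lower) and 28.1% in PKBα-/- cells (11.9% higher, 16.2% lower). The share that passed also varied with level. Of probe sets without a ribosomal protein symbol, 47.3% passed in wild type between log2 intensities of 8 and 12 (median -0.09). Between 12 and 14, 62.1% passed (median 0.22). The lists were not tested against probe sets of their own level. Of 35 genes of ribosome biogenesis, 12 rose in wild-type ISP8 and none fell (34.3% passed, median 0.21), among them Rpf2 (0.92), a factor for the 5S particle, Gar1 (1.1), a protein of the pseudouridylation complex, Bysl (0.93), which acts on the small subunit, and Ubtf (0.84), a factor for ribosomal RNA transcription. In PKBα-/- cells 8 rose and none fell (22.9% passed, median 0.13). Of 76 mitochondrial ribosomal proteins, 30 rose and 3 fell in wild type (43.4% passed, median 0.28), with Mrpl42 at 0.95 and Mrps18c at 0.92, and 18 and 3 in PKBα-/- cells (27.6% passed, median 0.18).

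Translation factors whose mRNAs also carry the pyrimidine tract had a median change of 0.02 in wild type, where Nap1l1 (0.57), a histone chaperone, Eif2s3x (0.68) and Eef1d (0.30) rose among 15 and none fell (20% passed). In PKBα-/- cells 5 rose and 1 fell (40% passed, median 0.06). Of the 8 tested genes of cap-dependent control, 3 rose and 3 fell in both genotypes (75% passed). Eif4e, which binds the cap, rose by 0.89 and Eif4a1, its helicase partner, by 0.52 in wild type, whereas Eef2k, the kinase of elongation factor 2, fell by 1.29 and Pdcd4, an inhibitor of Eif4a1, fell by 0.54. Of the ribosomal genes outside the naming rule, Rpl22l1, Rps3a1, Fau and Rpl7l1 did not pass in either genotype on their brightest probe set, while another probe set of Rpl7l1 (1426386_at) rose by 0.85 in wild type and 0.58 in PKBα-/- cells.

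None of these lists had a gene that passed for genotype in DN3 or ISP8 by limma. At an unadjusted p under 0.05, where 4.83% of all probe sets lay in DN3 and 6.08% in ISP8, ribosome biogenesis had 2 in DN3 and 7 in ISP8 (of 35), the mitochondrial proteins 2 and 7 (of 76), the translation factors 0 and 2 and cap-dependent control 0 and 1. In ISP8 cells, 61 of the 76 mitochondrial ribosomal proteins were below zero in PKBα-/- against wild type (median -0.10), and 24 of the 35 biogenesis genes (median -0.06). Of all probe sets tested, 47.4% were below zero (median 0.02). These list counts are given for the values as deposited only. The median of the cytosolic members in this comparison moved from -0.06 to -0.00 after quantile normalisation.

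**Figure D5:**
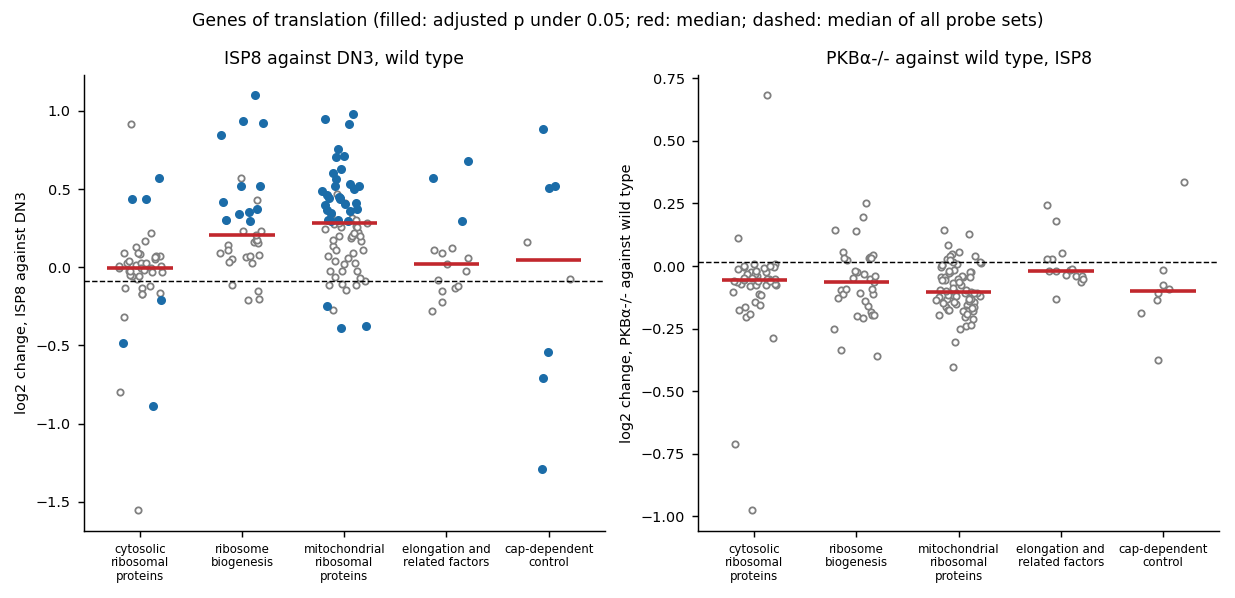
Log2 change of each gene in the cytosolic ribosomal proteins and 4 related lists, from DN3 to ISP8 in wild type (left) and from wild type to PKBα-/- in ISP8 (right), filled where the adjusted p was under 0.05, with the list's median in red and the median of all probe sets dashed. On the left the biogenesis and mitochondrial lists lie above zero (medians 0.21 and 0.28) and the cytosolic proteins on it, and on the right all medians lie below zero.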

How the data were processed

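The deposited table held GC-RMA values, which the authors computed from the scanned arrays with correction for background and for the GC content of the probes, on a linear intensity scale for 45101 probe sets and 16 arrays. The values were used as deposited and log2-transformed without a constant. Probe sets above 20 in at least 1 array of a pair, in at least 3 of 4 pairs, were fitted with limma (3.58.1, R 4.3.3; lmFit and eBayes with trend), with the pair or mouse as a block as in the paired design of the study's methods. The Benjamini-Hochberg adjustment ran across every tested probe set (threshold 0.05). The fit was tested on simulated data. Genes were named from the platform annotation, in which 34958 probe sets had 1 symbol, 932 several and 9211 none.

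The pairing came from the labels. After removal of the genotype means, pair mates correlated at 0.32 to 0.38 in DN3 and 0.07 to 0.18 in ISP8, and arrays of other pairs at -0.23 to 0.07 and -0.17 to 0.05. Pairs are separate mice, so that the spread includes litter, sex and age.

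Members and lists were chosen with earlier results of these data known. Genes were named for a known role or a close copy, for the smallest p (up to 6 members per direction and comparison, and up to 4 genes per related list), or because probe sets disagreed. Alternatives were another or no filter, an added constant of 20, quantile normalisation, subtraction of array medians, robust moderation, the methods' paired t-test, no block, leaving out each pair and other choices of probe set. No depth exists for arrays, and 4 arrays per group limit the precision.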

Additional observations from a re-analysis of the deposited data

Results flagged for a closer look

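In 9 of 116 groups of 4 arrays (29 probe sets in 4 groups each), the highest or lowest array stood far from the other 3 on the log2 scale by Dixon's ratio of the gap to the range. Chance alone marks about 1 group in 20. These arrays read 12656 for Rpl11 in wild-type ISP8 of the 2-week-old male, 2048 for Rpl14 in wild-type DN3 of the 5-week-old female, 2774 for Rpl14 in PKBα-/- ISP8 of the 3-week-old female, 12570 for 1422623_x_at of Rpl41 in PKBα-/- DN3 of the 2-week-old male, 26.25 for Rpl39l in wild-type DN3 of the 3-week-old female, 9421 for 1426163_x_at of Rpl7 in wild-type ISP8 of the 3-week-old male, 5377 for 1453362_x_at of Rps24 in PKBα-/- ISP8 of the 3-week-old female, 36380 for Rpl13a in wild-type DN3 of the 3-week-old male and 60.59 for Rps27 in PKBα-/- DN3 of the 5-week-old female.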

How the results depend on the processing

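Of the recomputed counts and medians, 237 stayed within the limits set (1.5 times a count, or 1 SD of the 4 pairs for a median) and 41 moved. Subtraction of the array medians gave 14 members higher and 1 lower from DN3 to ISP8 in wild type (median 0.18) and 7 and 1 in PKBα-/- cells (median 0.12). Quantile normalisation gave 6 lower in wild type (median -0.0514), 0 higher and 9 lower in PKBα-/- cells, and genotype medians of -0.0019 in ISP8 and 0.00035 over both subsets. With a filter at 100, 5 were lower in wild type and 4 higher in PKBα-/- cells, and without a filter 0 were higher in PKBα-/- cells. Without the replicate block for the pairing, 1 was lower in wild type, and 0 were higher and 2 lower in PKBα-/- cells; the block changed no member's call for genotype. Leaving out 1 pair gave 1 to 3 lower in wild type, and 0 to 2 higher and 1 to 5 lower in PKBα-/- cells. Averaging the probe sets of each gene gave 5 lower and a median of -0.0494 in wild type and 1 higher in PKBα-/- cells, and the choice without _x_at and _s_at probe sets gave 1 higher there. Over all single-symbol probe sets, chosen after seeing the data, the counts were 7 and 15 in wild type, 5 and 15 in PKBα-/- cells and 1 higher for genotype in DN3, and over the probe sets with further symbols 7 lower in wild type and 5 and 13 in PKBα-/- cells. The methods' paired t-test with its fold limit took 0 members in either direction and genotype, and after adjustment 0 higher in wild type and 1 higher and 0 lower in PKBα-/- cells. The cause of these shifts was not tested.

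Single members whose sign turned had not passed the test as reported: from DN3 to ISP8 in wild type Rpl27 (-0.0147 after quantile normalisation), Rpl37a (0.0108) and Rpl11 (0.0153, both after subtraction of the medians), in PKBα-/- cells Rpl39 (-0.0372 without the 2-week-old males and 2.03 without the 3-week-old males, which passed), and for genotype in ISP8 Rpl11 (-0.0285 to 0.0432 on leaving out 1 pair), Rps9 (-0.00634 after subtraction of the medians and -0.0538 to 0.0364 on leaving out 1 pair) and Rps6 (-0.0059 after subtraction and -0.0412 to 0.0537 on leaving out 1 pair). Dim probe sets (Rps16, Rpl39, Rpl39l, Rpl3l, Rps4l and Rps27) gave wide intervals or none, and near the top of the intensity range the arrays' response was not measured.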
